A study of Mus musculus with 5 samples.

Results

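10 genes of red cell metabolism and antioxidant defence were followed by symbol in the deposited read counts: Car1, Car2, Blvrb, Prdx2, Cat, Gpx1, Bpgm, Pklr, Hagh and G6pdx. All 10 have a row among the 23441 genes of the count table, and 9 had enough counts to be tested. Counts were made from poly(A) RNA of the mandible at embryonic day 10.5, in 5 libraries from mice. The 3 control libraries were from embryos of genotype Yapf/f, Tazf/f with no Cre named, on a 129SvEv background. The 2 dCKO libraries were from Wnt1Cre; Yapf/f, Tazf/f embryos, labelled C57BL/6J x CBA/J; 129SvEv. Floxed alleles of Yap and Taz, a pair of transcriptional coactivators of the Hippo pathway, were thus shared by both groups. Wnt1Cre drives recombination in the premigratory neural crest and not in blood cells. Strain background and genotype cannot be told apart. The labels name no batch, and they do not say whether a library was 1 embryo or a pool, so p-values measure the spread between these libraries only.

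A red cell has no mitochondria once mature. It makes its ATP by glycolysis, ending at pyruvate kinase, and uses a side branch of that pathway to make 2,3-bisphosphoglycerate, which lowers the oxygen affinity of haemoglobin. Carbonic anhydrase turns carbon dioxide into bicarbonate for transport in the blood. Haemoglobin leaks superoxide, and catalase, glutathione peroxidase and peroxiredoxin remove the peroxide that follows. Glutathione peroxidase and peroxiredoxin do so with reducing power drawn from the pentose phosphate pathway. In embryos of this age the circulating red cells are mostly of the primitive lineage, made in the yolk sac. In bulk tissue, more cells of a type and more RNA per cell cannot be told apart.

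Depth ran from 6491137 counts in control 3 to 13298973 in dCKO 2, the dCKO group being the deeper. Of the deleted genes, Yap1 was at 312, 475 and 512 CPM (counts relative to a library total scaled by TMM) in controls 1 to 3 and at 175 and 170 CPM in dCKO 1 and 2, and Wwtr1, which encodes TAZ, at 38.4, 65.1 and 66.2 and at 22.7 and 22.8 CPM. Neither overlapped between groups, and both passed (edgeR adjusted p = 1.31e-05 and 1.56e-04). Markers of the dissected tissue were present throughout, 8 arch mesenchyme genes summing to 1985 to 2129 CPM in controls and 1780 to 1827 CPM in dCKO libraries, with 3 of 8 called lower. Counts of 3 embryonic globins (Hba-x, Hbb-y, Hbb-bh1) made up 0.335% to 0.441% of counts in controls and 5.30% and 7.43% in dCKO libraries, 16.9 times as much on average. Among 10 tested red cell markers other than globins (of 11 in the table), 10 were higher, and the 11 summed to 105 to 125 CPM in controls against 1963 to 2248 CPM in dCKO libraries. Megakaryocyte and platelet markers moved with them, 8 of 8 tested being higher (10 genes summing to 10.1 to 18.8 CPM, then 104 to 197 CPM). Myeloid markers summed to 15.9 to 17.9 and 29.1 to 43.6 CPM, with 1 of 7 called higher, and 3 of 8 epithelial keratin and adhesion markers were called higher. Endothelial markers summed to 245 to 281 and 258 to 313 CPM. Of these, 0 of 8 were called by edgeR, by DESeq2 or by limma-voom, and 0 had an unadjusted p below 0.05. Over all tested genes edgeR called 6.42%, and 21.5% had such an unadjusted p, so a 0 among so few genes carries little weight. None of the genes on these lists was at 0 in every library. The part of each cell type in the results below was not tested.

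Of the 9 enzyme genes tested, 6 were higher in dCKO than in control tissue: Pklr, Blvrb, Car2, Gpx1, Bpgm and Prdx2. Cat, Hagh and G6pdx did not pass, and Car1 had no counts in any library. The background is low, since 5.0% of the 12710 tested genes were called higher at a Benjamini-Hochberg adjusted p below 0.05 in the edgeR quasi-likelihood test. Across all genes 816 differed (6.42%), 636 higher and 180 lower, a split that became 531 and 469 when libraries were scaled by total counts alone. The members' log2 fold changes ran from 0.15 to 4.21 with a median of 1.27, beside a median of -0.000618 over all tested genes. Together the 10 genes took 0.0976% ± 0.0037 of all counts in controls (SD, n = 3) and 0.239% ± 0.031 in dCKO libraries (SD, n = 2). The 6 calls held in each of 13 alternative analyses, among them every analysis with 1 library left out, and 0 further members were called in any. Groups did not overlap for 7 of the 9, against 37.6% of all tested genes.

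**Figure D1:**
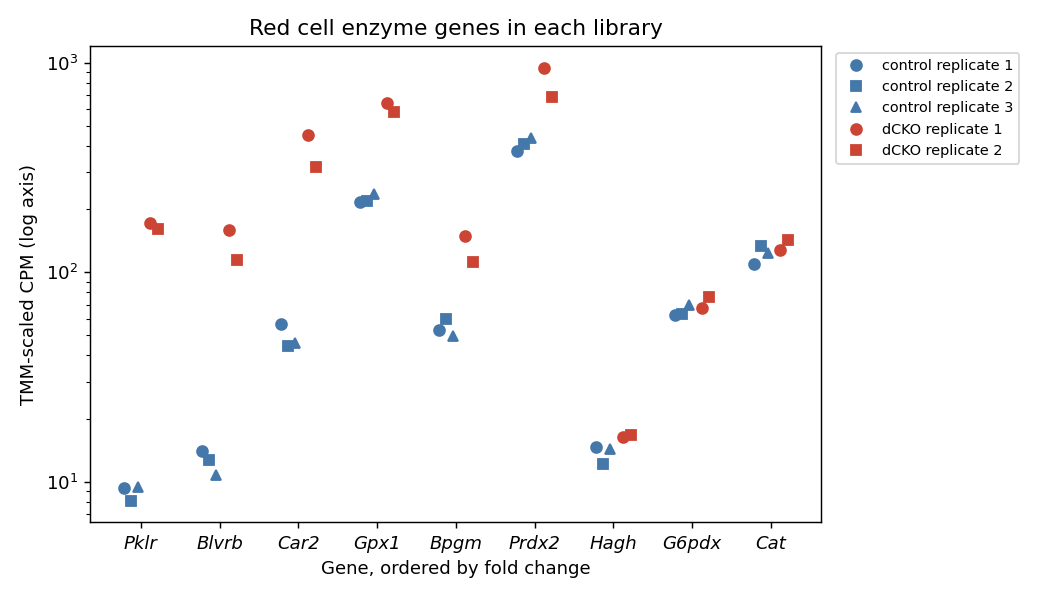
TMM-scaled CPM (log axis) of the 9 tested enzyme genes in each library, controls in blue and dCKO in red, ordered by fold change. The 6 genes on the left have both dCKO points above all control points. Their fold changes between groups run from 18.6 for Pklr to 2.0 for Prdx2. The points of G6pdx and Cat overlap and those of Hagh lie close together.

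Pklr, which encodes the pyruvate kinase of red cells and liver, changed most. It measured 9.33, 8.12 and 9.47 CPM in controls 1 to 3 and 172 and 161 CPM in dCKO 1 and 2. The groups lay far apart and each was tight, with raw counts of 60 to 71 against 1866 and 2099. The log2 fold change was 4.21 (SE 0.14, edgeR adjusted p = 7.35e-14), an 18.6-fold rise with a 95% interval of 15.2 to 22.7. Hcn3, which lies on the opposite strand and overlaps Pklr in the GENCODE annotation, had only 6 to 15 counts per library, beside 60 or more for Pklr in every library.

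Pklr is a gene with alternative starts, the first used in red cells and the second in liver. Counts per gene do not separate the starts, and the sequences are shown because this gene had the largest rise. RefSeq places the 2 starts 481 bases apart on the plus strand (build GRCm38.p6). The 120 bases before the first start, chr3:89136022-89136141, and 120 bases that end 51 bases before the second, chr3:89136452-89136571, clear of annotated exons, read as follows, with the letters AGATAA, a form of the motif bound by GATA factors, in capitals.
Pklr first start: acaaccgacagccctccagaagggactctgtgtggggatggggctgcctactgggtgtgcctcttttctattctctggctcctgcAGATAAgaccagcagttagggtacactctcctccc
Pklr second start: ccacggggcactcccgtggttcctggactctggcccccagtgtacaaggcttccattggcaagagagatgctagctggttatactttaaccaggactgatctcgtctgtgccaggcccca
AGATAA begins 35 bases before the first start, on the gene's own strand. Searched on both strands in the 250 bases before each start, it was present in 1 of the 11 windows that RefSeq gives for 8 members, this one, and in 9.99% of all 32851 windows. Car1 and Car2 have no window in that table. A match is a description of the letters and not a binding site.

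The other glycolytic member is Bpgm, the mutase that makes 2,3-bisphosphoglycerate. It measured 52.8, 59.8 and 49.5 CPM in controls and 150 and 112 CPM in dCKO libraries. Both dCKO values were well above the controls, with a wide gap between them. The log2 fold change was 1.27 (SE 0.14, edgeR adjusted p = 1.87e-06). Pkm and Pgam1, the widely expressed counterparts of Pklr and Bpgm, stood at 1784 ± 206 and 1985 ± 61.8 CPM, and at 399 ± 35.2 and 378 ± 8.29 CPM (SD, n = 3 and 2), and neither passed (edgeR adjusted p = 0.404 and 0.737). Per kilobase of transcript, Pklr made up 0.459%, 0.414% and 0.392% of the summed Pklr and Pkm level in controls, against 6.93% and 6.23% in dCKO libraries. Bpgm made up 8.84%, 10.8% and 9.78% of the summed Bpgm and Pgam1 level in controls, and 24.3% and 18.9% in dCKO libraries. So Pkm remained the main pyruvate kinase transcript of the tissue in every library. Of the 17 other glycolytic genes tested, 3 were higher and 1 lower. By comparison, edgeR called 6.42% of all tested genes in either direction. Hk1, the hexokinase of red cells and many other cells, rose from 51.9 ± 3.71 to 91.8 ± 7.90 CPM (SD, n = 3 and 2), by 0.82 on the log2 scale (edgeR adjusted p = 1.80e-04). Tpi1, triose phosphate isomerase, and Pfkl, the liver-type phosphofructokinase, which falls outside the naming rule and was picked after its value was seen, rose by smaller factors, 1.36-fold each. Eno3, the muscle-type enolase, fell by 0.48 on the log2 scale. Tpi1 lost its call without control 1, control 2 or dCKO 2 (edgeR adjusted p = 0.109, 0.0602 and 0.215), and Pfkl without the same libraries (0.170, 0.168 and 0.283). Eno3 lost its call without dCKO 1 or dCKO 2 (0.149 and 0.128). The other 13 did not pass.

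Car2, carbonic anhydrase II, a highly active cytosolic form of the enzyme, measured 56.4, 44.4 and 45.8 CPM in controls and 451 and 318 CPM in dCKO libraries. The lowest dCKO library was more than 5 times the highest control, and dCKO 1 exceeded dCKO 2. The log2 fold change was 2.97 (SE 0.15, edgeR adjusted p = 4.45e-11), a 7.86-fold rise with a 95% interval of 6.30 to 9.80. Car1, the other carbonic anhydrase known from red cells, had 0 counts in all 5 libraries. A count of 0 allows up to 0.458 CPM in the shallowest library and 0.230 CPM in the deepest, taking 3 counts as the limit and counting error only. Gm16399, a processed pseudogene on the same strand, overlaps Car1 in the GENCODE annotation and is not listed in the count table. Akr1b3, an aldose reductase gene, is also listed at 0 in every library. Whether the 0 of Car1 comes from the counting or from absent RNA was not tested. In the annotation Car13, Car1, Car3 and Car2 are consecutive members of 1 cluster on chromosome 3. Car3, next to Car2 and on the same strand, had 7 to 13 counts in controls and 30 and 31 in dCKO libraries, or 1.42 ± 0.345 and 2.57 ± 0.282 CPM (SD, n = 3 and 2), and did not pass (edgeR adjusted p = 0.305). Car13 measured 9.58 ± 1.43 and 7.82 ± 0.207 CPM (edgeR adjusted p = 0.518). Of the 7 carbonic anhydrases tested besides Car2, 0 passed by edgeR, DESeq2 or limma-voom, and 0 had an unadjusted p below 0.05. The shares over all tested genes were 6.42% (edgeR calls) and 21.5% (unadjusted p). Per kilobase, Car2 made up 25.3%, 21.0% and 21.3% of the summed carbonic anhydrase level in controls and 71.5% and 65.3% in dCKO libraries.

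Blvrb, biliverdin reductase B, a flavin reductase first known from red cells, measured 13.9, 12.7 and 10.7 CPM in controls and 159 and 114 CPM in dCKO libraries. Every dCKO value was many times any control value. The log2 fold change was 3.45 (SE 0.16, edgeR adjusted p = 1.67e-11), a 10.9-fold rise with a 95% interval of 8.60 to 13.9. Blvra, the reductase that makes bilirubin in adult tissue, measured 11.3 ± 1.15 and 12.4 ± 0.279 CPM (SD, n = 3 and 2) and did not pass (edgeR adjusted p = 0.781). Per kilobase the 2 reductases were near equal in controls, with Blvrb at 52.3%, 51.8% and 50.7% of their sum, whereas in dCKO libraries Blvrb was at 92.5% and 90.1%. Of the 5 other genes of haem breakdown and methaemoglobin reduction, which include the haem oxygenases Hmox1 and Hmox2, 0 passed by edgeR, DESeq2 or limma-voom, and 0 had an unadjusted p below 0.05. Among all tested genes 6.42% were called by edgeR and 21.5% had such an unadjusted p, so a 0 among 5 carries little weight. Hmox1, the inducible haem oxygenase, measured 19.6 ± 2.27 and 19.9 ± 1.80 CPM.

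**Figure D2:**
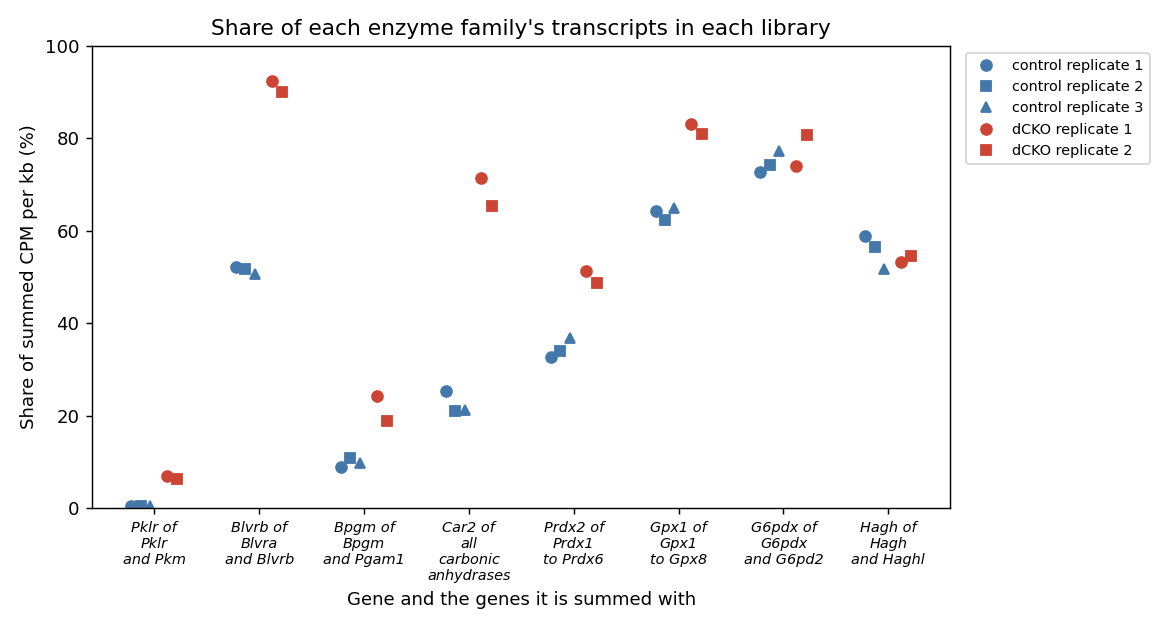
Share of each enzyme family's summed level per kilobase of transcript taken by the named member, in each library, controls in blue and dCKO in red. Blvrb moved from 50.7% to 52.3% in controls to 90.1% and 92.5%, and Car2 from at most 25.3% to at least 65.3%, while the shares of G6pdx and Hagh overlap between groups.

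The peroxide-removing members split. Prdx2, a thiol peroxidase abundant in red cells, measured 379, 410 and 438 CPM in controls and 947 and 686 CPM in dCKO libraries, with no overlap. Its log2 fold change was 1.0 (SE 0.13, edgeR adjusted p = 1.78e-05). Prdx2 has annotated pseudogene copies that could have taken some of its reads, and Rnaseh2a and Junb overlap it on the opposite strand, so its level is uncertain to that extent. Gpx1, the selenium-containing glutathione peroxidase of the cytosol, measured 215, 219 and 235 CPM in controls and 643 and 578 CPM in dCKO libraries. The groups were well separated and the controls agreed closely. The log2 fold change was 1.45 (SE 0.11, edgeR adjusted p = 1.06e-08), 2.73-fold with a 95% interval of 2.33 to 3.20. Cat, catalase, measured 109, 134 and 123 CPM in controls and 127 and 143 CPM in dCKO libraries. The groups overlapped, dCKO 1 lying below control 2, and the log2 fold change of 0.15 (SE 0.13) did not pass (edgeR adjusted p = 0.536). Its 95% interval, 0.92-fold to 1.33-fold, lies wholly below those of Prdx2 and Gpx1.

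Blvrb rose 10.9-fold and Cat did not pass, and their promoter windows are shown side by side for what they share. CCNCNCCC, a form of the motif bound by KLF factors, is in capitals, on either strand, in the 250 bases before the first Blvrb start (chr7:27447728-27447977, plus strand) and in 180 bases that end 7 bases before the Cat start (chr2:103485161-103485340, minus strand), both from RefSeq in build GRCm38.p6 and printed 5′ to 3′ along the gene.
Blvrb first start: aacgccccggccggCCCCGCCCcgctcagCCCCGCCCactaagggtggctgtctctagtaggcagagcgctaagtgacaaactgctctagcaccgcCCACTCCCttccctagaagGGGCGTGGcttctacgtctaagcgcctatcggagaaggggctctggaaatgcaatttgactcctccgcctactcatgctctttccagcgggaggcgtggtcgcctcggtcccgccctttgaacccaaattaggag
Cat start: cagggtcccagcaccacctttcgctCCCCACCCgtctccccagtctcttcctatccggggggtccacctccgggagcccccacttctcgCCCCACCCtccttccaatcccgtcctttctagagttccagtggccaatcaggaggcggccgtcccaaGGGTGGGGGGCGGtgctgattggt
Each holds 4 matches, 2 of which overlap in Cat. Over all members with a window, the motif stood before 3 of 5 that rose (Blvrb, Prdx2 and Bpgm) and 3 of 3 that did not pass. Counted by window, it was found in 7 of the members' 11 windows and in 45.9% of all 32851 windows of 250 bases.

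Prdx1, the closest relative of Prdx2, measured 326 ± 40.2 and 276 ± 26.4 CPM (SD, n = 3 and 2, edgeR adjusted p = 0.269). Per kilobase, Prdx2 rose from 32.7%, 34.1% and 36.7% of the summed level of the 6 peroxiredoxin genes in controls to 51.3% and 48.6% in dCKO libraries. Gpx1 went from 64.2%, 62.3% and 65.0% of the summed level of the 8 glutathione peroxidase genes to 83.2% and 81.0%. Such shares rest on counted reads, and reads lost to pseudogene copies of any family gene were not measured. Gpx4, which reduces lipid peroxides, measured 19.3, 25.3 and 34.8 CPM in controls and 35.5 and 48.3 CPM in dCKO libraries, and narrowly missed the threshold (edgeR adjusted p = 0.0536). It passed in 6 of the 13 alternative analyses, at adjusted p down to 5.56e-04. Of the 27 other peroxide and thiol genes tested, 3 were higher and 1 lower. Among all tested genes, edgeR called 6.42% in either direction. Gclm, the modifier subunit of the enzyme that limits glutathione synthesis, rose from 23.1 ± 3.85 to 56.7 ± 2.79 CPM (log2 fold change 1.29, SE 0.16, edgeR adjusted p = 1.10e-05). Glrx5, a mitochondrial glutaredoxin of iron-sulphur cluster assembly that red cells need for haem synthesis, rose from 93.6 ± 11.2 to 198 ± 32.3 CPM (1.08, SE 0.14, 1.60e-05). Prdx3, a mitochondrial peroxiredoxin named after its value was seen, rose by 0.45 (edgeR adjusted p = 0.0331). Gpx8, a peroxidase of the endoplasmic reticulum, fell from 40.3 ± 5.77 to 23.5 ± 2.34 CPM (edgeR adjusted p = 0.00508). Prdx3 lost its call without control 2, control 3, dCKO 1 or dCKO 2 (0.167, 0.0539, 0.242 and 0.127), and Gpx8 lost it without dCKO 1 (0.118). Of 13 genes that encode or answer to NRF2, a factor of the antioxidant response, Gclm and Mafg were called higher. The share of all tested genes called in either direction was 6.42%. Mafg, a small MAF partner of NRF2, had an edgeR adjusted p of 0.0481 and lost its call without any 1 library other than control 3 (0.127 to 0.242) and with DESeq2 (0.0536). The other 11 did not pass, and the median log2 fold change of the 13 was 0.03.

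G6pdx, glucose-6-phosphate dehydrogenase, the first enzyme of the pentose phosphate pathway, measured 62.3, 62.8 and 69.7 CPM in controls and 67.6 and 76.4 CPM in dCKO libraries. The groups overlapped, and the log2 fold change of 0.15 (SE 0.13, 95% interval 0.93-fold to 1.33-fold) did not pass (edgeR adjusted p = 0.517). G6pdx is on the X chromosome, and the libraries differed in sex-linked transcripts. Xist measured 343 CPM in control 3 and 414 CPM in dCKO 2, the libraries with the highest G6pdx, and at most 1.29 CPM in the others, where Ddx3y from the Y chromosome stood at 38.2 to 64.2 CPM. The part of sex in the G6pdx values was not tested. G6pd2, a near copy without introns, and Ikbkg on the opposite strand could share reads with it. Of the 8 other pentose phosphate genes tested, edgeR, DESeq2 and limma-voom called 0, where edgeR called 6.42% of all tested genes. An unadjusted p below 0.05 was seen for 1 of the 8, against 21.5% of all tested genes. Pgd, the next oxidative enzyme of the pathway, measured 270.5 ± 38.0 and 280 ± 26.8 CPM (SD, n = 3 and 2).

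Hagh, glyoxalase II, which completes the removal of methylglyoxal as D-lactate, measured 14.6, 12.2 and 14.4 CPM in controls and 16.3 and 16.6 CPM in dCKO libraries. Both dCKO values lay above the controls, as they did in 19.0% of all tested genes, but by less than the test could call. Its log2 fold change was 0.26 (SE 0.20, edgeR adjusted p = 0.461), with a 95% interval of 0.90-fold to 1.59-fold. Raw counts of Hagh were 90 to 217, the lowest of the members that did not pass. Fahd1 overlaps it on the opposite strand with 52 to 203 counts, so part of its reads could belong to that gene. Glo1, glyoxalase I, measured 105 ± 27.7 and 113.5 ± 14.7 CPM. Of the 4 other glyoxalase and aldehyde reducing genes tested, 0 passed by edgeR, DESeq2 or limma-voom, and 0 had an unadjusted p below 0.05. For all tested genes the shares were 6.42% (edgeR calls) and 21.5% (unadjusted p).

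**Figure D3:**
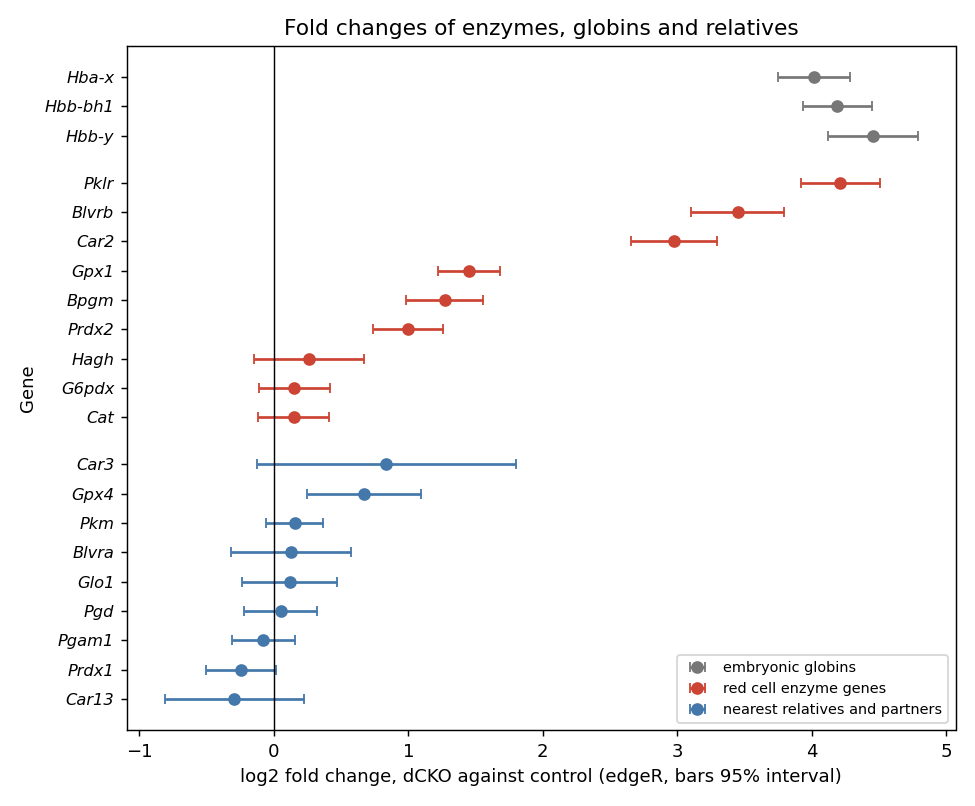
The log2 fold change of dCKO against control with its 95% interval (edgeR) for the 3 embryonic globins in grey, the 9 tested enzyme genes in red, and 9 relatives or pathway partners in blue. Pklr at 4.21 lies among the globins at 4.02 to 4.46, Blvrb and Car2 lie between 2.9 and 3.5, Gpx1, Bpgm and Prdx2 between 0.9 and 1.5, and the intervals of Hagh, G6pdx and Cat include 0.

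The order of the members depended on whether folds or amounts were compared. By level per kilobase in controls, Prdx2 (254 ± 18.2) and Gpx1 (208 ± 9.69) stood highest, followed by Cat (46.7 ± 4.74), Car2 (27.3 ± 3.66), G6pdx (24.5 ± 1.56) and Bpgm (24.3 ± 2.37), all in CPM per kilobase (SD, n = 3). Car2, G6pdx and Bpgm differed by less than their spread. Hagh (11.5 ± 1.12), Blvrb (8.27 ± 1.09) and Pklr (3.09 ± 0.257) were lowest. In dCKO libraries Gpx1 (569 ± 42.6) and Prdx2 (506 ± 115) still led (SD, n = 2) and did not differ beyond their spread, with Car2 (215 ± 52.3) and Blvrb (90.8 ± 21.4) next. The mean gain per kilobase was 361 CPM for Gpx1, 253 for Prdx2, 188 for Car2, 82.6 for Blvrb, 54.3 for Pklr and 34.5 for Bpgm. Per kilobase, Gpx1 and Prdx2, whose folds were among the smallest of the 6, thus gained the most. Pklr, with the largest fold, gained less than 4 of the other 5 on that scale. Without division by length the gains were 407 CPM for Prdx2, 387 for Gpx1 and 336 for Car2. Pklr then gained 158 CPM, above 124 for Blvrb and 76.5 for Bpgm. Cat, G6pdx and Hagh gained 4.97, 2.67 and 2.30 CPM per kilobase.

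Since the globins rose in the same libraries, each member was also set against them, by a fit in which the summed embryonic globin counts took the place of library size. Pklr kept pace. It had 2.16, 2.35 and 2.86 counts per 1000 globin counts in controls and 2.21 and 2.98 in dCKO libraries, which overlap. The log2 change of that ratio was 0.09 (SE 0.33, 95% interval -0.56 to 0.73, edgeR adjusted p = 0.792). The other 8 tested members fell relative to the globins, as did 99.0% of the 12707 genes in that fit, so their falling is what nearly every gene did. Genes called higher made up 0.0472% of the fit, with 0 members among them, and genes with no called difference 0.968%, and the 10 tested red cell markers were all among them. Car2 had 13.1, 12.8 and 13.8 counts per 1000 globin counts in controls and 5.78 and 5.90 in dCKO libraries, a log2 change of -1.18 (SE 0.34, edgeR adjusted p = 4.88e-04). Blvrb had 3.23, 3.68 and 3.22 in controls and 2.04 and 2.11 in dCKO libraries, a log2 change of -0.70 (SE 0.33, edgeR adjusted p = 0.0338). That call was lost without control 1, 2 or 3 or dCKO 1 (0.0559, 0.163, 0.0808 and 0.0515). For both genes the libraries of a group lay close to each other on this scale. Bpgm and Prdx2 fell by 2.89 and 3.18 on the log2 scale, Gpx1 by 2.69, and Hagh, G6pdx and Cat by 3.85 to 3.98.

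**Figure D4:**
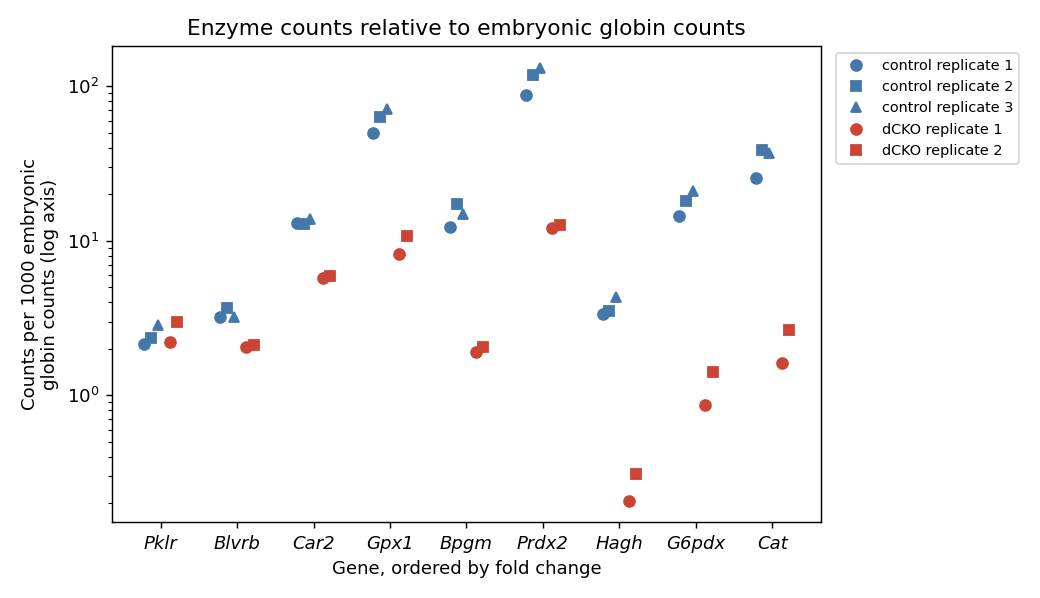
Counts of each tested enzyme gene per 1000 counts of the 3 embryonic globins (log axis), in each library, controls in blue and dCKO in red. Pklr overlaps between groups at 2.16 to 2.98, Car2 and Blvrb are lower in dCKO libraries by a small factor, and the remaining genes are lower by a wide margin.

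The 2 dCKO libraries differed from each other in globin content, and the members did not all differ with it. dCKO 1 exceeded dCKO 2 by 1.37 times for Hba-x, 1.34 times for Hbb-bh1 and 1.70 times for Hbb-y. The corresponding ratio was 1.42 for Car2, 1.40 for Blvrb, 1.38 for Prdx2 and 1.34 for Bpgm, close to the globins. It was 1.11 for Gpx1 and 1.07 for Pklr, nearer to 1.10 for Alas2, which starts haem synthesis in the red lineage. Cat and G6pdx went the other way at 0.888 and 0.884. In controls, Car2 and Blvrb were highest in control 1, as were the globins, whereas Prdx2 and Gpx1 were highest in control 3. Bpgm was highest in control 2 (59.8 CPM), and Pklr in control 3 (9.47 CPM, against 9.33 in control 1). With 2 and 3 libraries these orders have no test.

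For each member, the tested gene outside the set with the most similar pattern was sought among 10738 genes averaging at least 5 CPM, by Euclidean distance of log2 CPM over the 5 libraries, centred on the control mean. The gene nearest to Pklr was Ank1, the ankyrin of the red cell membrane skeleton, at a distance of 0.274. It measured 12.9, 10.7 and 10.2 CPM in controls and 203 and 210 CPM in dCKO libraries. Tgm2, a transglutaminase, was nearest to Car2 (0.331), Padi2, a peptidylarginine deiminase, to Blvrb (0.234), St3gal6 to Bpgm (0.202), Ehbp1l1 to Gpx1 (0.131) and Cldn4, an epithelial claudin, to Prdx2 (0.125). Padi2 was low in controls (1.18, 1.35 and 0.917 CPM), where the 0.5 CPM added before taking logs weighs most. Its edgeR log2 fold change was 3.95, against 3.45 for Blvrb. Those nearest to Cat, Hagh and G6pdx, namely Hook1, St3gal2 and Zswim4, did not pass the test either (edgeR adjusted p = 0.763, 0.271 and 0.461). Distances are over 5 libraries and are a description.

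The authors' deposited table, which lists 9 of the members, held the same 6 at an adjusted p below 0.05, where 2.88% of its 18610 genes were. In the authors' deposited table the fold changes were 18.6 for Pklr, 11.1 for Blvrb, 8.0 for Car2, 2.79 for Gpx1, 2.46 for Bpgm and 2.04 for Prdx2. In that deposited table by the authors Cat, G6pdx and Hagh stood at 1.13, 1.13 and 1.22, with adjusted p of 0.878, 0.916 and 0.911.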

How the data were processed

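Poly(A) RNA of mandibular tissue was sequenced in 5 libraries, grouped by their titles. The authors deposited raw read counts per gene symbol, and columns headed WT were matched to the titles called control by replicate number. The authors also deposited a table with a signal (mean normalized count), a fold change as a ratio, its log2 value and p-values, per the file headers. HTSeq 0.5.4p3, DESeq 1.16.0 and build mm9 are named in the submitters' processing notes. No aligner, annotation or strand setting is given in the sources used here. Reads of overlapping genes on opposite strands therefore cannot be told apart. Dates stood in place of 27 gene symbols.

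The analysis used edgeR 4.0.16 in R 4.3.3: filterByExpr (minimum count 10, minimum total 15), TMM scaling, and the quasi-likelihood F test of dCKO against control over 12710 genes, adjusted by Benjamini-Hochberg, two-sided, threshold 0.05. The procedure was tested on simulated data. Standard errors were obtained by dividing the size of the log2 fold change by the square root of F. Intervals of 95% use the t distribution with the test's degrees of freedom. Levels per kilobase use the longest GENCODE M21 transcript. The ratio to globins replaced library size by the summed Hba-x, Hbb-y and Hbb-bh1 counts. Alternatives used limma 3.58.1 (voom), DESeq2 1.42.0, other scalings and filters, left-out libraries and a replicate block. Pattern distances used a pseudocount of 0.5 CPM.

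Named genes were the 10 members, up to 4 called genes per direction in each of 7 pathway lists, a fixed set of relatives, and the nearest pattern per member. Genes used for context (Hmox1, Hmox2, Akr1b3, Gpx4 per library, Xist, Ddx3y, Alas2, overlapping genes) were named after their values were seen. The members and lists were chosen with earlier results of these data known.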

Additional observations from a re-analysis of the deposited data

How the results depend on the processing

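The 6 members called higher stayed called in 13 of 13 alternatives (scaling by RLE, by total counts alone, or by TMM without the red cell genes, DESeq2, limma-voom, both filters, the replicate block and each library left out), and 0 were called lower. Counts over all genes moved more. The number called higher ranged from 403 to 950 with single libraries left out and the number called lower from 39 to 687. The lower calls numbered 63, 97 and 687 without control 1, 2 or 3 and 39 and 79 without dCKO 1 or 2, and the higher calls 422 without control 1, 403 without dCKO 1 and 404 without dCKO 2. Lower calls numbered 469 with scaling by total counts alone and 305 with no filter. With 1 dCKO library removed, the spread came from the controls and was assumed for the other. Same-numbered libraries shared little (correlation of deviations 0.08 for number 1 and -0.006 for number 2). The deviations of 2 dCKO libraries mirror each other, so these values cannot settle whether the numbers pair the libraries. With the replicate block 1200 genes were called higher and 921 lower, and 6 members remained higher. The members lower relative to globins numbered 7 to 8 with single libraries left out, Blvrb being the one that lost its call. Values near 0 changed sign for the ratio of Pklr to red cell markers in place of globins (-0.012), for that of Pklr to globins with a library left out (-0.14 to 0.29), and for the log2 fold changes of Glo1 (-0.067 to 0.33) and Pgd (-0.040 to 0.16) with a library left out, and of Pgd with scaling by total counts alone (-0.026). None of these passed the test in any setting. Tpi1, Pfkl, Prdx3 and Mafg lost their calls with scaling by total counts alone (edgeR adjusted p = 0.0515, 0.0686, 0.0694 and 0.0674). The causes were not tested. Car1 gave no value in any setting. With 3 and 2 libraries, the 95% intervals were 0.92-fold to 1.33-fold for Cat and 0.93-fold to 1.33-fold for G6pdx. That of Hagh was 0.90-fold to 1.59-fold. A rise or fall within these limits could have been missed.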
